A study of Rattus norvegicus with 42 samples.

Results

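Immediate early genes are genes that cells transcribe within minutes of a stimulus, from transcription factors that are already present and without new protein synthesis. Levels of 9 such genes (Fos, Fosb, Jun, Junb, Egr1, Nr4a1, Ier2, Dusp1 and Atf3) were examined in whole blood of rats 24 hours after stroke. Members were all probe sets that the probe annotation gives one of these symbols, which found 13 of the 31042 probe sets tested and all 9 of the genes, out of 14217 genes named by the annotation. Of several probe sets of a gene, the brightest on average was used. Expression came from Affymetrix Rat Genome 230 2.0 arrays of 42 male Sprague-Dawley rats of 280-350 g, 1 array per rat and 6 rats in each of 7 groups.

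Reperfused-MCAO + tPA rats had the right middle cerebral artery occluded with an intraluminal suture for 2 hours, reperfusion for 22 hours and tPA at 3.3 mg/kg 3 hours after onset. Reperfused-MCAO rats had the same surgery without tPA. Permanent-MCAO + tPA and permanent-MCAO rats kept the suture in place until blood was drawn at 24 hours, with and without the same dose of tPA. The controls were tPA without MCAO, anesthesia without MCAO or tPA, and naive rats. Surgery was done under isoflurane, and the animals were also put under isoflurane at 24 hours for the blood draw. The study names no group as left out of this. Blood was drawn by cardiac puncture into PAXgene tubes, which fix RNA at the time of the draw. No group had the neck surgery without the occlusion, so effects of the occlusion and of the operation cannot be told apart. The tPA, short for tissue plasminogen activator, was human protein given into the peritoneum, and the study does not state whether the group given tPA without MCAO was anesthetised for it.

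Fos and Fosb pair with Jun and Junb to form AP-1, a dimeric transcription factor, and Atf3 is a stress-induced member of the ATF/CREB family that can also pair with Jun proteins. Dusp1 is a phosphatase that switches off the MAP kinases p38 and JNK, Ier2 is a small nuclear protein of the early response, and Egr1 and Nr4a1 are a zinc finger factor and an orphan nuclear receptor. Most of these genes are switched on through serum response factor, which binds CArG boxes, or through CREB, which binds cyclic AMP response elements (CRE). In blood they are known for induction in granulocytes and monocytes, by cytokines, adhesion and handling of the sample.

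RefSeq promoter windows on the GRCr8 rat assembly, running 250 bases before to 50 after 1 transcription start per gene, were matched for 6 of the 9 genes (Fosb, Nr4a1, Dusp1, Egr1, Junb and Ier2). That start was the first base of the annotated locus in Dusp1, Egr1, Junb and Ier2, but lay 322 bases inside the locus in Fosb and 12985 bases inside it in Nr4a1, so that the Nr4a1 window belongs to an internal start. Those of Dusp1 (chr10:17184603-17184902) and Ier2 (chr19:40399123-40399422) are shown because these genes had higher levels after MCAO, and those of Egr1 (chr18:26736828-26737127) and Nr4a1 (chr7:134259888-134260187) because these did not. All 4 are on the plus strand and are written 5′ to 3′. Capitals mark the CRE (TGACGTCA), its core (TGACG) and the CArG box, searched on both strands, where each full CRE also holds 2 overlapping cores.
Dusp1: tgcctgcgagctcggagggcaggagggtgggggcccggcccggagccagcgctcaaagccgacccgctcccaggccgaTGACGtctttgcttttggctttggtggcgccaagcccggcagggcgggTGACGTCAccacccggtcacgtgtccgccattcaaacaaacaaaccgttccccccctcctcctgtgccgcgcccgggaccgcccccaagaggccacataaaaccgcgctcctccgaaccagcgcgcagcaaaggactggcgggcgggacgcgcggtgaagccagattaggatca
Ier2: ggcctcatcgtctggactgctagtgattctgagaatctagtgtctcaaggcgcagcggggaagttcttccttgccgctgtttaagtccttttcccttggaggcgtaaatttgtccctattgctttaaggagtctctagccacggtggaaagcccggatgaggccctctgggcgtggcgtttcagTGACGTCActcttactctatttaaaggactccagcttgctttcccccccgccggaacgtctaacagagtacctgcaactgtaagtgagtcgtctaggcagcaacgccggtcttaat
Egr1: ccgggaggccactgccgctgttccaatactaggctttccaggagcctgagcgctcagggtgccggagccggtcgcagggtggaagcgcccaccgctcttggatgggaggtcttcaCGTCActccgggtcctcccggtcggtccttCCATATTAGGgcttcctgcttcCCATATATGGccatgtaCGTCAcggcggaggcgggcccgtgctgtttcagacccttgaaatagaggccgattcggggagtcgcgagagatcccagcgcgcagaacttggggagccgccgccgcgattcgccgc
Nr4a1: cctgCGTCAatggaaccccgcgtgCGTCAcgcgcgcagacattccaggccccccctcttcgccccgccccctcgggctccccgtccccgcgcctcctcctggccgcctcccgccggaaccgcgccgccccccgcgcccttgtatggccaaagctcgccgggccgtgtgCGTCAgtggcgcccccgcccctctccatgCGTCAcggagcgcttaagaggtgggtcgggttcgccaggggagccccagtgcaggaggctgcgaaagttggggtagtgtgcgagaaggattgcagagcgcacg
Positions are counted from the start each window uses. A full CRE lay at -124 in Dusp1 and at -66 in Ier2, and 1.83% of 33469 promoter windows of this length held one. Dusp1 had a further core at -172. Egr1 held 2 CArG boxes, at -105 and -83, a motif found in 1.64% of windows, and cores at -135 and -66. The window at the internal start of Nr4a1 held 4 cores, at -246, -226, -82 and -53, and 21.2% of windows held at least 1. No AP-1 site (TGANTCA, in 7.33% of windows) was found in the windows of the 6 genes. These matches describe letters only and were not tested against expression.

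Values were the log2 GC-RMA signals of the authors, with a mean below log2 4 called dim here. Over the 42 rats the mean was 8.28 ± 0.72 for Fos, 6.22 ± 0.73 for Jun, 9.98 ± 0.64 for Dusp1 and 7.01 ± 0.36 for Ier2 (SD, n = 42). It was 4.37 ± 0.48 for Atf3, 5.51 ± 0.51 for Egr1 and 5.66 ± 0.65 for Nr4a1. Fosb at 2.95 ± 0.37 and Junb at 1.85 ± 0.09 were dim, and of all probe sets 13232 of 31042 had a mean of at least log2 4. The second probe sets of Fos (mean 2.06) and Dusp1 (mean 2.14) and 1 of 3 for Jun (mean 1.95) were dim as well. Spread between rats of one group was wide for several members: among bright probe sets the within-group SD stood at percentile 91.2 for Fos, 90.7 for Nr4a1, 87.0 for Jun and 82.5 for Dusp1. Ier2 varied less, at percentile 34.4.

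**Figure D1:**
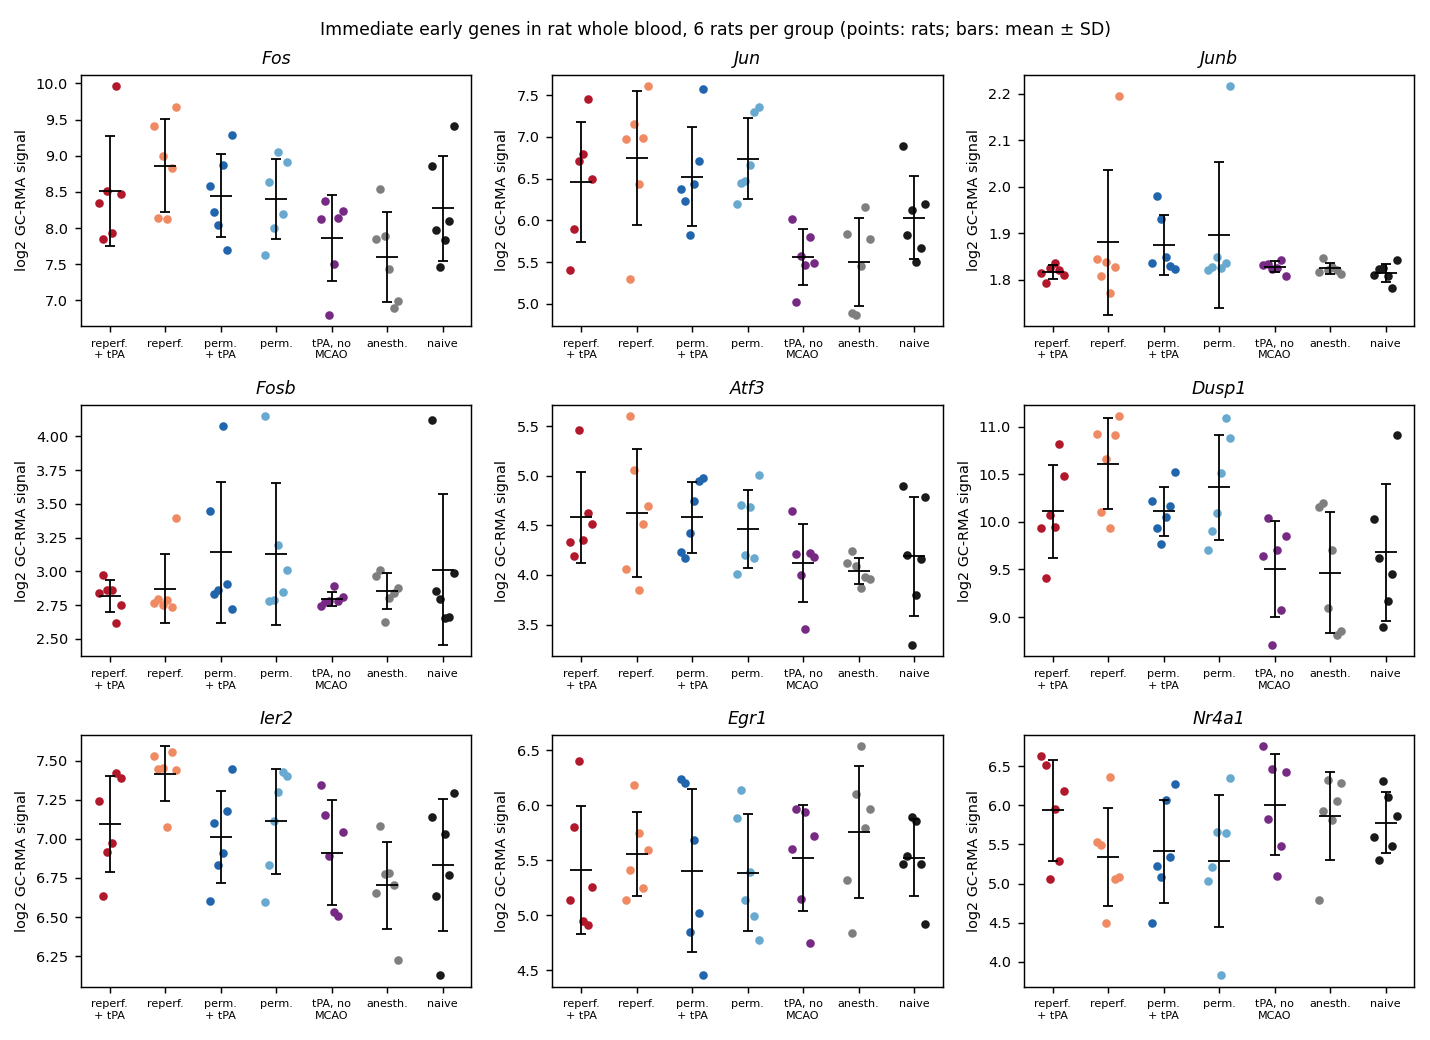
Log2 GC-RMA signal of each immediate early gene (vertical axis, own scale per panel) in 6 rats of each of the 7 groups, with points for rats and bars for mean ± SD. Jun lies between 6.19 and 7.36 in permanent-MCAO rats and between 4.87 and 6.16 in anesthesia rats, while the groups overlap for Egr1 and Nr4a1.

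Reperfused-MCAO against anesthesia addressed what stroke with reperfusion changes in blood. Fos, Jun, Dusp1 and Ier2 were higher in reperfused-MCAO rats at the thresholds of the study for comparisons of this size (p at most 0.01 and fold at least 1.2). These 4 of 9 members compare with 6% of all probe sets called in this comparison and 4.09% called higher. The members were chosen with earlier results of these data known, so shares set beside each other are descriptions only. Among bright probe sets 13% were called.

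Fos had a lowest, median and highest signal of 8.13, 8.91 and 9.68 in reperfused-MCAO rats, against 6.89, 7.64 and 8.54 in anesthesia rats. Both lowest reperfused-MCAO rats fell below the highest anesthesia rat, and the other reperfused-MCAO rats lay above all anesthesia rats. The difference was log2 1.26 ± 0.35 (SE), or 2.40-fold (limma adjusted p = 0.101). Jun, the partner of Fos in AP-1, had 5.30, 6.98 and 7.61 in reperfused-MCAO rats, against 4.87, 5.62 and 6.16 in anesthesia rats. A single reperfused-MCAO rat lay within the anesthesia range. The Jun difference was log2 1.25 ± 0.38 (limma adjusted p = 0.133), and a second Jun probe set, also called, gave log2 1.00 ± 0.24.

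Dusp1, the MAP kinase phosphatase, had 9.94, 10.79 and 11.11 in reperfused-MCAO rats, against 8.81, 9.40 and 10.20 in anesthesia rats. Its difference was log2 1.14 ± 0.31, or 2.20-fold (limma adjusted p = 0.095), with the lowest reperfused-MCAO rats inside the anesthesia range. Ier2 had 7.08, 7.45 and 7.56 in reperfused-MCAO rats, against 6.22, 6.74 and 7.08 in anesthesia rats. The ranges met at one rat of each group, and the smaller difference of log2 0.71 ± 0.13 (1.64-fold) was the only one of the members to pass Benjamini-Hochberg adjustment over all probe sets (limma adjusted p = 0.0223), where 2.11% of all probe sets passed it. Two-sided exact permutation p values over all divisions of the 12 rats were 0.0108 for Fos, 0.0152 for Jun, 0.013 for Dusp1 and 0.00433 for Ier2.

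The other members were not called after reperfused MCAO. Atf3 had 3.84, 4.60 and 5.60 in reperfused-MCAO rats, against 3.87, 4.03 and 4.24 in anesthesia rats, a difference of log2 0.59 ± 0.26 (exact permutation p = 0.0519). The lowest reperfused-MCAO rat lay just below the anesthesia range, and most of the others lay above it. Egr1 and Nr4a1 had negative differences of log2 -0.21 (95% interval -0.82 to 0.41) and -0.53 (-1.26 to 0.20). Fosb and Junb, both dim, differed by log2 0.02 and 0.06.

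Some of these calls rested on single rats. Leaving out 1 rat at a time, Dusp1 and Ier2 stayed called in all 12 fits and the differences of the 4 called genes stayed positive. Fos lost its call in 3 of 12 fits, at log2 1.15 without reperfused-MCAO replicate 1, 1.12 without anesthesia replicate 5 and 1.14 without anesthesia replicate 6. Jun lost its call in 7 of 12 fits, without any of reperfused-MCAO replicates 1, 3, 5 and 6 and anesthesia replicates 2, 3 and 4, at log2 1.07 to 1.24. Atf3 was called only without reperfused-MCAO replicate 4, at log2 0.74. Jun also lost its call with quantile scaling of the deposited values, at log2 1.19, and Fos with anesthesia and naive rats pooled as the control, at log2 0.93.

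Permanent-MCAO against anesthesia asked the same of stroke without reperfusion. Jun was higher in all permanent-MCAO rats than in any anesthesia rat, with 6.19, 6.57 and 7.36 in permanent-MCAO rats, against 4.87, 5.62 and 6.16 in anesthesia rats. The difference was log2 1.24 ± 0.28, or 2.36-fold (limma adjusted p = 0.122). The exact permutation p was 0.00216, the smallest that 2 groups of 6 can give. The second Jun probe set was called as well, at log2 0.93 ± 0.23. Jun was the 1 member called, where 2.78% of all probe sets were called and 1.77% called higher. Among bright probe sets 6.07% were called.

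Fos, Dusp1, Ier2 and Atf3 had positive differences after permanent MCAO that missed p at most 0.01. Fos had 7.63, 8.41 and 9.05 in permanent-MCAO rats, against 6.89, 7.64 and 8.54 in anesthesia rats, a difference of log2 0.81 ± 0.32 (exact permutation p = 0.0433). Dusp1 had 9.70, 10.30 and 11.09 in permanent-MCAO rats, against 8.81, 9.40 and 10.20 in anesthesia rats, a difference of log2 0.89 ± 0.33 (exact permutation p = 0.0346). In both genes the ranges of the groups overlapped, with permanent-MCAO rats toward the high end. Ier2 differed by log2 0.41 ± 0.17 (exact permutation p = 0.0498) and Atf3 by log2 0.42 ± 0.16 (exact permutation p = 0.0325), while Egr1 at -0.37 ± 0.31 and Nr4a1 at -0.58 ± 0.40 again had negative differences. Ier2 and Atf3 were called without permanent-MCAO replicate 1, at log2 0.51 each, and Fos and Dusp1 without anesthesia replicate 2, at log2 0.99 and 1.04.

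**Figure D2:**
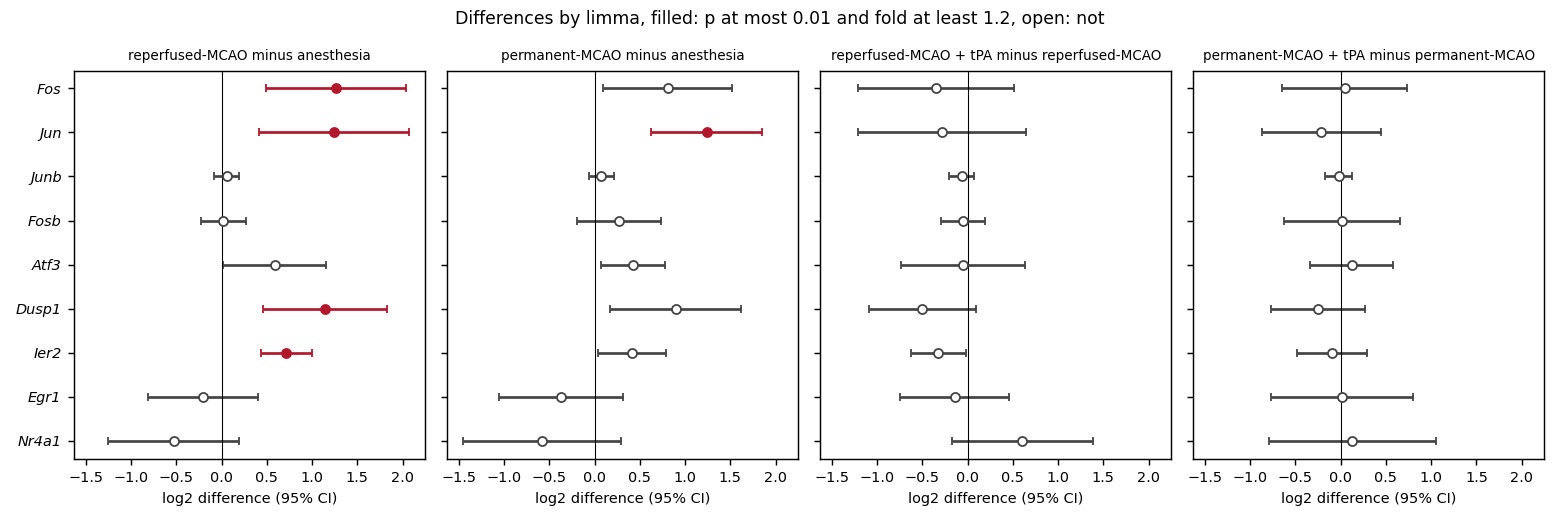
Log2 difference of each immediate early gene with its 95% interval (horizontal axis) in 4 comparisons of 6 with 6 rats, filled where called. Fos, Jun, Dusp1 and Ier2 are filled in reperfused-MCAO minus anesthesia, Jun in permanent-MCAO minus anesthesia, and no gene in either comparison with tPA.

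The 2 kinds of MCAO, set directly against each other, gave no called member (0 of 9, against 0.709% of all probe sets). Ier2 came closest, with 7.08, 7.45 and 7.56 in reperfused-MCAO rats, against 6.59, 7.20 and 7.43 in permanent-MCAO rats. That difference was log2 0.31 (95% interval -0.02 to 0.63, exact permutation p = 0.0693). For Fos it was log2 0.46 (-0.27 to 1.19) and for Jun 0.01 (-0.80 to 0.81). The calls made after one kind of MCAO and not the other are therefore not shown to differ.

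The first analysis of the study fits all 42 rats with terms for tPA, MCAO, anesthesia and tPA by MCAO, and calls at p at most 0.05 with a fold of at least 1.2. Averaged over rats without and with tPA, the MCAO difference was positive and called for 5 members, where 15.4% of all probe sets were called and 6.02% called higher. Among bright probe sets, to which these 5 members belong, 31.1% were called in either direction. All 5 members passed adjustment as well, as did 7.86% of all probe sets. The 5 members were Jun at log2 1.09 ± 0.20 (adjusted p = 9e-04 by limma), Dusp1 at 0.81 ± 0.18 (adjusted p = 0.005), Fos at 0.83 ± 0.22 (adjusted p = 0.0167), Ier2 at 0.35 ± 0.11 (adjusted p = 0.0435) and Atf3 at 0.48 ± 0.15 (adjusted p = 0.0459). The median over the 9 members was log2 0.35 and over all probe sets 0.00. Nr4a1 fell short of a call at log2 -0.44 ± 0.22 (limma adjusted p = 0.25), and was called lower when any of 10 of the 42 rats was left out. Egr1 differed by -0.20 ± 0.18.

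Within that fit the MCAO difference can be read apart by treatment. Among rats with tPA it was log2 0.93 for Jun, 0.61 for Dusp1 and 0.46 for Atf3, all 3 called, and 0.62 for Fos and 0.14 for Ier2, not called. Among rats without tPA all 5 genes were called, at log2 1.24 for Jun, 1.02 for Dusp1, 0.51 for Atf3, 1.03 for Fos and 0.56 for Ier2. The tPA by MCAO interaction of the first analysis tests this gap, and none of the 9 members was called for it, against 21% of all probe sets. Ier2 was nearest at log2 -0.42 ± 0.22 (limma adjusted p = 0.199).

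Among all 7 groups, Jun (limma adjusted p = 0.0167) and Dusp1 (adjusted p = 0.0367) differed by the F test, where 9.87% of all probe sets and 20.6% of bright ones did. Differences among groups made up 45.9% of the variance of Jun, 40.8% of that of Dusp1, 35.6% for Ier2 and 30.8% for Fos, and 5.59% of that of Egr1. The median share over bright probe sets was 27.6%, so Fos lay near a typical bright probe set. Dusp1 lost its call in 10 of 42 fits that leave out a rat, among reperfused-MCAO replicates 1, 3, 5 and 6, permanent-MCAO replicate 6, tPA without MCAO replicates 3 and 5, and anesthesia replicates 3, 5 and 6. Its highest adjusted p there was 0.068.

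By group means, Fos ran from 8.86 in reperfused-MCAO through 8.51 in reperfused-MCAO + tPA, 8.45 in permanent-MCAO + tPA, 8.40 in permanent-MCAO, 8.27 in naive and 7.86 in tPA without MCAO to 7.60 in anesthesia. Jun ran from 6.75 in reperfused-MCAO, 6.74 in permanent-MCAO, 6.52 in permanent-MCAO + tPA and 6.46 in reperfused-MCAO + tPA to 6.04 in naive, 5.56 in tPA without MCAO and 5.50 in anesthesia. All 4 MCAO groups thus stood above the 3 others for Jun, as they did for Dusp1, Fos, Ier2 and Atf3. Between neighbours in these orders every gap was smaller than the pooled within-group SD, with the widest at 0.97 of it between reperfused-MCAO and permanent-MCAO for Ier2. Nr4a1 ran in another order, from 6.01 in tPA without MCAO, 5.94 in reperfused-MCAO + tPA, 5.87 in anesthesia and 5.78 in naive to 5.41 in permanent-MCAO + tPA, 5.34 in reperfused-MCAO and 5.29 in permanent-MCAO.

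tPA after reperfused MCAO gave no call among the 9 members by limma or by the methods' test, which shares no variance between probe sets, against 0.722% of all probe sets by limma, and Ier2 alone was below an unadjusted p of 0.05. Ier2 had 6.64, 7.11 and 7.42 in reperfused-MCAO + tPA rats, against 7.08, 7.45 and 7.56 in reperfused-MCAO rats, so that most rats of the treated group lay below most of the untreated. Its difference was log2 -0.32 ± 0.14 (exact permutation p = 0.0455, limma adjusted p = 0.542). Dusp1 had 9.41, 10.01 and 10.82 in reperfused-MCAO + tPA rats, against 9.94, 10.79 and 11.11 in reperfused-MCAO rats, a difference of log2 -0.50 (95% interval -1.09 to 0.09). The median difference was log2 -0.14 over the 9 members and 0.02 over all probe sets. Among bright ones it was -0.28 for members and -0.03 for all probe sets. Of the 9 differences, which are not independent because some members vary together, 8 were negative. Nr4a1 was the exception, with 5.05, 6.07 and 6.63 in reperfused-MCAO + tPA rats, against 4.49, 5.29 and 6.36 in reperfused-MCAO rats, a difference of log2 0.60 (-0.17 to 1.38).

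For Fos, 1 treated rat stood far above the rest. Fos had 7.86, 8.40 and 9.97 in reperfused-MCAO + tPA rats, against 8.13, 8.91 and 9.68 in reperfused-MCAO rats, a difference of log2 -0.35 (95% interval -1.22 to 0.51). Without reperfused-MCAO + tPA replicate 5, the rat at 9.97, the difference was log2 -0.64 ± 0.30 (limma adjusted p = 0.478), still not called.

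tPA after permanent MCAO gave no call by either test, against 0.322% of all probe sets by limma, and 0 of 9 members were below an unadjusted p of 0.05. The differences were log2 0.04 for Fos (95% interval -0.64 to 0.73), -0.22 for Jun (-0.87 to 0.44), -0.25 for Dusp1 (-0.77 to 0.27) and -0.10 for Ier2 (-0.49 to 0.29). With 6 rats a group these intervals still allow a tPA effect on Fos of up to log2 0.73, where permanent MCAO itself gave 0.81. The difference between the 2 tPA effects called none of the members (0.296% of all probe sets).

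In rats without MCAO, tPA was set against anesthesia. None of the 9 members was called, while 13.7% of all probe sets were. Jun had 5.03, 5.53 and 6.02 in rats given tPA without MCAO, against 4.87, 5.62 and 6.16 in anesthesia rats, and Dusp1 8.71, 9.67 and 10.04, against 9.40 as the median and 8.81 to 10.20 as the range in anesthesia rats. The groups overlapped almost fully, with differences of log2 0.06 (95% interval -0.48 to 0.60) for Jun, 0.04 (-0.67 to 0.74) for Dusp1, 0.26 (-0.48 to 1.01) for Fos and 0.21 (-0.17 to 0.59) for Ier2. The 14 probe sets of the hybridization controls averaged 11.16 in this group and 12.22 in anesthesia rats. With their level as a covariate 0 of 9 members were called as well, and the probe sets called were 803 against 4267 without it. Averaged over rats without and with MCAO, tPA gave no call among the members (12% of all probe sets).

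Anesthesia against naive had bearing on the choice of control. No member was called, against 0.821% of all probe sets, yet Fos had 6.89, 7.64 and 8.54 in anesthesia rats, against 7.46, 8.03 and 9.41 in naive rats, and Jun 4.87, 5.62 and 6.16 in anesthesia rats, against 5.50, 5.98 and 6.89 in naive rats. The differences were log2 -0.67 (95% interval -1.49 to 0.15) for Fos and -0.53 (-1.16 to 0.09) for Jun. With naive rats as the control, an alternative added after seeing the data, the reperfused-MCAO difference was log2 0.59 for Fos, 0.71 for Jun, 0.93 for Dusp1 and 0.58 for Ier2, with Ier2 alone called. For Jun in permanent-MCAO rats it was log2 0.71, not called. Leaving aside this added alternative, in every comparison with 0 of 9 members called 0 were below an unadjusted p of 0.05, apart from Ier2 for tPA in reperfused-MCAO rats, and the methods' test also called 0.

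**Figure D3:**
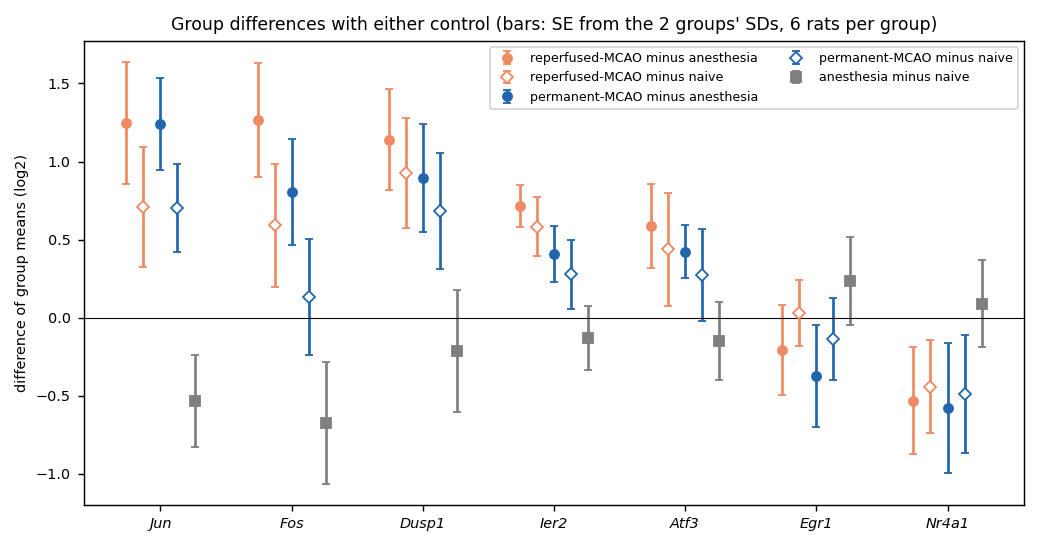
Difference of group means (log2, vertical axis) with its standard error for the 7 bright immediate early genes, MCAO groups against anesthesia (filled) and against naive rats (open), and anesthesia minus naive (squares). For Fos in reperfused-MCAO rats the difference is 1.26 with anesthesia and 0.59 with naive rats as the control.

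Markers of other blood cells moved in the same comparisons. Of 12 neutrophil markers 9 were measured, all bright, and 4 were called higher in reperfused-MCAO than in anesthesia rats (Il1r2, Csf3r, Slpi and Cxcr2). This compares with 4.09% of all probe sets called higher and 13% of bright ones called. Of the 9 markers 3 passed adjustment, and the median difference over the 9 was log2 1.39. The mean level of the 9 lay between 8.74 and 11.25 in reperfused-MCAO rats, against 7.95 to 9.31 in anesthesia rats. In permanent-MCAO rats it lay between 8.75 and 10.08, with 4 markers called higher, 0 passing adjustment and a median of log2 0.92. There 1.77% of all probe sets were called higher and 6.07% of bright ones called. For tPA in reperfused-MCAO rats the median over the 9 markers was log2 -0.81, with 0 called. There 3 of the 9 were below an unadjusted limma p of 0.05, against 7.99% of all probe sets. Their mean level averaged 9.14 in reperfused-MCAO + tPA and 9.89 in reperfused-MCAO rats. What this contributes to the members' differences under tPA was not tested. None of the 9 markers was near the floor of the array. In whole blood, more cells of a type and more RNA per cell cannot be told apart.

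With the neutrophil marker level as a covariate, added after seeing the data, Ier2 stayed called in reperfused-MCAO rats at log2 0.44 (limma adjusted p = 0.413). Fos at 0.55, Jun at 1.03 and Dusp1 at 0.62 were no longer called. Jun in permanent-MCAO rats stayed called at log2 1.15 (limma adjusted p = 0.609). Of 11 measured monocyte markers 5 were called higher in reperfused-MCAO rats, 1 of them after adjustment, where 4.09% of all probe sets were called higher and 13% of bright ones called, and their mean level lay between 8.06 and 8.87 there, against 7.60 to 8.07 in anesthesia rats.

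Other blood cell markers were read as well. Of 10 NK and cytotoxic cell markers 5 were called higher in reperfused-MCAO than in anesthesia rats (median log2 0.64), 0 of them after adjustment. Of 9 platelet markers 2 were called higher there (median log2 0.42). In this comparison 4.09% of all probe sets were called higher and 13% of bright ones called. NK and cytotoxic marker levels lay between 9.10 and 10.02 in reperfused-MCAO rats, against 8.48 to 9.28 in anesthesia rats, and platelet marker levels between 10.29 and 11.62 in reperfused-MCAO rats, against 10.44 to 11.10 in anesthesia rats. None of the 12 T cell or 7 B cell markers was called there by limma or by the methods' test, and 0 of either were below an unadjusted p of 0.05. Averaged over treatment, MCAO called 8 of 10 NK and cytotoxic and 8 of 9 platelet markers higher and 9 of 12 T cell markers lower. There 6.02% of all probe sets were called higher, 9.39% lower and 31.1% of bright ones in either direction. That average also takes tPA without MCAO as a control. Against anesthesia, this control group had 10 T cell markers called higher and 4 platelet markers called lower. In that comparison 13.7% of all probe sets and 28.7% of bright ones were called. Permanent MCAO against anesthesia called 0 NK and cytotoxic, platelet or T cell markers. The part of these markers in the members' differences was not tested.

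Whether members varied together among rats was examined after group means were taken out, so that differences between groups could not enter. Of 36 pairs of members, 6 correlated by Pearson r at an adjusted p of at most 0.05 over 42 rats, 5 of them positively (100000 permutations within groups, two-sided). Dusp1 and Fos had r = 0.78 and rho = 0.76 (permutation p = 1e-05 for both, the smallest they can give, adjusted p = 0.00036 for both) and r = 0.73 without the 2 rats farthest in Dusp1. Dusp1 and Ier2 had r = 0.69 and rho = 0.70 (permutation p = 2e-05, adjusted p = 0.00036 for both), with r = 0.69 without the 2 farthest rats. Fos and Ier2 had r = 0.58 and rho = 0.58 (permutation p = 0.00014 and 0.00015, adjusted p = 0.00168 and 0.0018), with r = 0.52 without them.

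Atf3 and Ier2 had r = 0.50 and rho = 0.44 (permutation p = 0.00144 and 0.00741, adjusted p = 0.013 and 0.0425), and r = 0.61 without the 2 rats farthest in Atf3. Atf3 and Fos passed by rho alone, with r = 0.43 and rho = 0.54 (permutation p = 0.0123 and 0.001, adjusted p = 0.0633 and 0.009). Without the 2 rats farthest in Atf3 their r was 0.59. Dusp1 and Jun had r = 0.42 and rho = 0.43 (permutation p = 0.00786 and 0.00826, adjusted p = 0.0472 and 0.0425), and r = 0.45 without the 2 farthest. The negative pair was Ier2 and Egr1, with r = -0.44 and rho = -0.45 (permutation p = 0.00533 and 0.00641, adjusted p = 0.0384 and 0.0425), and r = -0.41 without the 2 farthest. Rats of one group that were high in Dusp1 thus tended to be high in Fos, Ier2 and Jun, and Egr1 did not run with them.

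**Figure D4:**
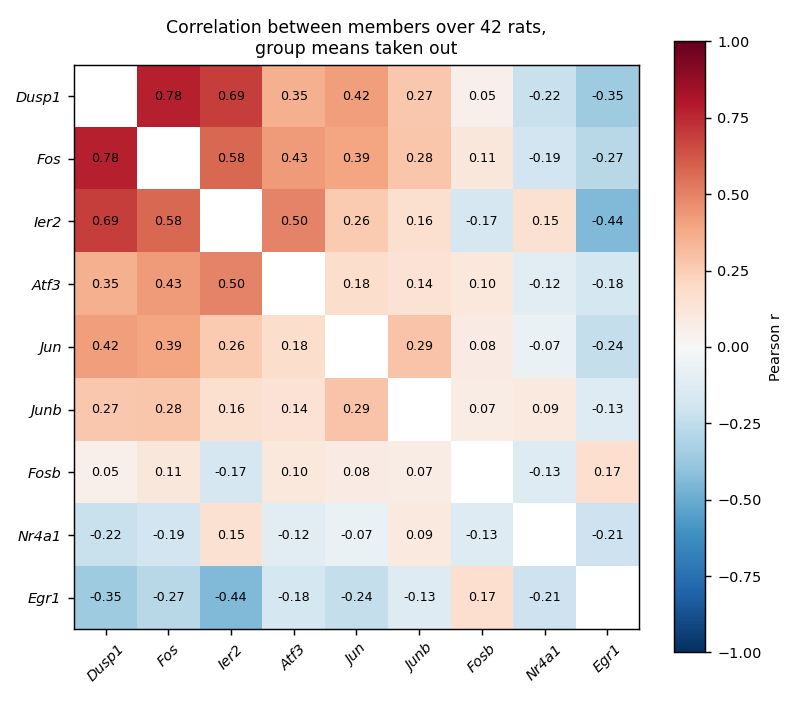
Pearson r between each pair of immediate early genes over 42 rats after group means were taken out (colour and printed value, both axes list the genes). Dusp1, Fos and Ier2 form the block of highest values, from 0.58 to 0.78, and Egr1 has negative values with Dusp1, Fos and Ier2.

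The same was done for 72 relations of members to marker levels and the hybridization controls, of which 8 passed. Within groups, the neutrophil marker level correlated with Ier2 (r = 0.57, rho = 0.65, permutation p = 5e-05 and 3e-05, adjusted p = 0.0018 and 0.00108, r = 0.62 without the 2 farthest rats) and with Dusp1 (r = 0.56, rho = 0.59, permutation p = 0.00014 and 0.00015, adjusted p = 0.00336 and 0.0036, r = 0.62 without them). With Fos it had r = 0.51 and rho = 0.52 (permutation p = 0.00118 and 0.00139, adjusted p = 0.0167 and 0.02, r = 0.60 without them). The monocyte marker level correlated with Jun (r = 0.53), Ier2 (r = 0.51) and Fos (r = 0.49), at adjusted permutation p of 0.0167, 0.0137 and 0.0268, and r was 0.42, 0.45 and 0.37 without the 2 farthest rats. By rho, at 0.43, 0.54 and 0.44, only Ier2 passed, with adjusted permutation p of 0.0729 for Jun, 0.0104 for Ier2 and 0.0639 for Fos. Nr4a1 went down as the platelet marker level went up (r = -0.65, rho = -0.67, permutation p = 3e-05 for both, adjusted p = 0.0018 and 0.00108, r = -0.64 without them), and Jun as the B cell marker level did (r = -0.49, rho = -0.49, permutation p = 0.00476 and 0.0034, adjusted p = 0.0428 and 0.0408, r = -0.53 without them).

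Other immediate early genes were read from a list of 38, of which 37 were measured and 22 bright. This list too was chosen with earlier results of these data known. After reperfused MCAO 7 of the 37 were called higher and none lower, against 4.09% of all probe sets called higher and 13% of bright ones called in either direction. Rhob, a small GTPase, was higher by log2 0.99 ± 0.12 (limma adjusted p = 0.0084), Klf10, a TGF-beta induced zinc finger repressor, by 0.76 ± 0.17, Zfp36, which promotes decay of cytokine mRNA, by 0.78 ± 0.20 and Klf6, a zinc finger factor, by 0.60 ± 0.16. After permanent MCAO the 3 called, against 2.78% of all probe sets and 6.07% of bright ones, were Rhob at 0.67 ± 0.10 (limma adjusted p = 0.0398), Klf10 at 0.63 ± 0.10 and Zfp36 at 0.70 ± 0.17. The median over the list was log2 0.09 in reperfused-MCAO and 0.01 in permanent-MCAO rats, against -0.02 and 0.00 over all probe sets.

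Averaged over treatment, MCAO called 9 of the 37, against 15.4% of all probe sets and 31.1% of bright ones. The 7 higher included Rhob at log2 0.55 ± 0.11, Klf10 at 0.53 ± 0.12, Zfp36 at 0.48 ± 0.11 and Ier5 at 0.39 ± 0.12. The 2 lower were Myc, the growth regulator, at log2 -0.45 ± 0.18 and Klf2, a factor of quiescent T cells and endothelium, at -0.29 ± 0.14. For tPA in reperfused-MCAO rats the single call was Per1, a circadian clock gene, at log2 -0.64 ± 0.20 (limma adjusted p = 0.542), which the methods' test did not call. None was called for tPA in permanent-MCAO rats or for tPA without MCAO by limma, where 2 and 9 of the 37 were below an unadjusted p of 0.05, and the methods' test called 0 in both.

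Kinases and transcription factors that act upstream were read from a list of 24, of which 18 were measured and 16 bright. After reperfused MCAO 2 of the 18 were called, a share near the 13% of bright probe sets called. Creb1, which binds the CRE, was higher by log2 0.73 ± 0.17 (limma adjusted p = 0.0582) and Mapk14, the p38 alpha kinase that Dusp1 switches off, by 0.49 ± 0.11 (limma adjusted p = 0.0531). None was called after permanent MCAO by limma, where 2 of the 18 were below an unadjusted p of 0.05, and the methods' test called 0. Given without MCAO, tPA called 3 of the 18, near the 13.7% of all probe sets and below the 28.7% of bright ones. These were Elk4 at log2 0.46 ± 0.12, Map2k1 at 0.31 ± 0.09 and Map2k2 at -0.60 ± 0.15.

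Over the 42 rats, the genes most like the mean z-score of the 7 bright members were Il1b (r = 0.84), Ptafr (r = 0.83), Tnfrsf1a (r = 0.82), Ece1 (r = 0.82) and Fndc3b (r = 0.81). They came from 10138 bright probe sets that carry 1 gene symbol and belong to no member. Most like Fos were Cdc42ep3 (r = 0.80), Steap4 (r = 0.80), Fndc3b (r = 0.79), Tm6sf1 (r = 0.79) and Zfp36 (r = 0.77). These values are descriptions that include the differences between groups. The mean z-score itself averaged 0.25 ± 0.39 in reperfused-MCAO + tPA, 0.54 ± 0.32 in reperfused-MCAO, 0.10 ± 0.45 in permanent-MCAO + tPA, 0.16 ± 0.45 in permanent-MCAO, -0.35 ± 0.51 in tPA without MCAO, -0.50 ± 0.19 in anesthesia and -0.20 ± 0.56 in naive rats (SD, n = 6 each).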

How the data were processed

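Whole-blood RNA of 42 rats was amplified with Nugen Ovation Whole Blood reagents and hybridized to Affymetrix Rat Genome 230 2.0 arrays. The deposited values are log2 signals that the authors computed with GC-RMA in Partek, which corrects background by probe sequence, brings the arrays to a common distribution and pulls weak signals to a floor. The scans were not used here. The 57 control probe sets were set aside and 31042 were tested, of which 20826 carry 1 gene symbol. Array medians lay between 3.05 and 3.26, and the number of arrays limits the precision.

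Differences were fitted with limma 3.58.1 (R 4.3.3) over all probe sets, using the arrays of each comparison or all 42 arrays with terms for tPA, MCAO, anesthesia and tPA by MCAO. Calls use the study's thresholds, and adjusted p values are Benjamini-Hochberg over all probe sets. Where 0 members were called, the shares of probe sets give the background. Fits were tested on simulated data. Exact tests and correlations used numpy 2.4.6 and scipy 1.17.1. Each rat is a separate animal with 1 array, so the tests set differences against a variation between rats that includes that between arrays. Genes named are the members, up to 4 called genes per direction of each list, and the 5 genes most like the members or Fos. The members and lists were chosen with earlier results of these data known. Alternatives covered scaling, dim probe sets, blocks, covariates, controls, codings and omission of each rat.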

Additional observations from a re-analysis of the deposited data

Results flagged for a closer look

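For each gene and group of 6 rats, the highest and lowest rat was compared with the rest, and 9 of 63 sets held a rat far from the others. For normally distributed values chance gives about 1 in 20. That rate need not hold for dim genes, whose values lie close to the floor, so no excess can be read from the total. Fos was highest in reperfused-MCAO + tPA replicate 5 at log2 9.97, with the other rats between 7.86 and 8.51. Atf3 was highest in reperfused-MCAO + tPA replicate 3 at 5.46, with the others between 4.19 and 4.63. Ier2 was lowest in reperfused-MCAO replicate 4 at 7.08, with the others between 7.44 and 7.56. Nr4a1 was lowest in anesthesia replicate 1 at 4.79, with the others between 5.81 and 6.32.

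The other 5 sets belong to the dim genes. Fosb stood at 3.39 in reperfused-MCAO replicate 6 (others 2.74 to 2.80), at 4.15 in permanent-MCAO replicate 1 (others 2.78 to 3.19) and at 4.12 in naive replicate 1 (others 2.65 to 2.99). Junb stood at 2.19 in reperfused-MCAO replicate 6 (others 1.77 to 1.85) and at 2.22 in permanent-MCAO replicate 6 (others 1.82 to 1.85). Reperfused-MCAO replicate 6 was high in both dim genes and was also the highest of its group for Fos at 9.68, Jun at 7.61 and Dusp1 at 11.11.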

How the results depend on the processing

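No difference of a called member changed sign under any alternative. The 4 members called for reperfused-MCAO against anesthesia became 3 with quantile scaling (Fos, Ier2 and Dusp1) or with anesthesia and naive rats pooled as the control (Jun, Ier2 and Dusp1), 2 with the replicate number as a replicate block (Jun and Ier2), and 1 (Ier2) with the hybridization control level as a covariate, with the neutrophil marker level as a covariate, or with naive rats as the control, and ranged from 2 to 5 when single rats were left out. The 1 called for permanent-MCAO against anesthesia became 2 in 1 fit of all 7 groups (Jun and Dusp1) and 0 with naive rats as the control, with a range of 1 to 3. The 5 called for MCAO averaged over treatment became 3 among rats with tPA, with a range of 5 to 6. The interaction called between 0 and 1 member (Ier2, in 7 of 42 omissions). The 2 members that differed among the 7 groups became 0 with either covariate, with a range of 1 to 2. With group means kept, 14 pairs of members and 23 relations to levels passed. The cause of these changes was not tested.

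Replicate numbers did not pair the rats: deviations of same-numbered rats correlated between -0.53 and 0.48, with a median of -0.04 and 39 of 126 pairs over 0.1. The block moved no other count of called members by over 1.5 times.

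Counts of probe sets called moved more. With the hybridization control covariate they were 439 against 224 for tPA in reperfused-MCAO, 169 against 100 for tPA in permanent-MCAO, 803 against 4267 for tPA without MCAO, 143 against 255 for anesthesia, 250 against 92 for the difference between tPA effects, 504 against 3711 for tPA averaged, 2933 against 4785 for MCAO averaged, 1909 against 6529 for the interaction and 581 against 3063 among the 7 groups. For tPA in permanent-MCAO they were also 49 over bright probe sets alone, 180 with the block, 245 in 1 fit of all groups and 62 with the methods' test. With the neutrophil covariate they were 608 against 1864 for reperfused-MCAO and 454 against 862 for permanent-MCAO. Over bright probe sets alone they were 143 against 220 for reperfused-MCAO against permanent-MCAO and 49 against 92 for the difference between tPA effects. With the tPA group without MCAO coded as not anesthetised they were 1681 for tPA averaged, 2427 for MCAO averaged and 3908 for the interaction, and among rats with tPA MCAO called 7650. Centring each array on its median gave 9797 among the 7 groups. Weak signal limits Fosb and Junb, where a difference may go unseen.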
